A study of Mus musculus with 4 samples.

Results

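The cholesterol pathway was followed through the fibroblasts of mouse lymph nodes by 8 genes, Hmgcs1, Idi1, Fdps, Fdft1, Sqle, Lss, Msmo1 and Insig1, chosen by name from the 32285 genes in the files. This choice was made with earlier results of these data known, which limits how the tests below can be read. The RNA of single cells was counted in droplets by its 3′ ends, in live sorted CD45-negative CD31-negative stromal cells from axillary, brachial and inguinal nodes of female C57BL/6 mice aged 12 weeks. The library Notch2 cKO 1 came from 6 pooled mice that carried Ccl19-Cre, the floxed Notch2 fl/fl alleles and the R26R-EYFP reporter, and Notch2 cKO 2 from 3 pooled mice with Ccl19-Cre and Notch2 fl/fl. Control 1 came from 6 pooled mice with Ccl19-Cre and R26R-EYFP that were not littermates of the first cKO group. Control 2 came from 3 pooled littermates of the second cKO group, with Notch2 fl/fl and no Cre by the genotype label. Its title reads Ccl19-Cre_WT, and the genotype label was followed. The libraries numbered 1 were batch 1 and those numbered 2 were batch 2. Ccl19-Cre acts in reticular fibroblasts and not in every sorted cell, so a cKO library also holds cells in which Notch2 may be intact. Each library is a pool and was taken as 1 replicate (n = 2 per genotype). P-values of class comparisons set the class difference within libraries against its spread between pools. Those of genotype set the genotype difference against its spread between batches.

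Cells build cholesterol from acetyl-CoA through mevalonate, isoprenoids, squalene and lanosterol. When sterol in the endoplasmic reticulum is low, the transcription factor SREBP-2, encoded by Srebf2, is carried by its escort SCAP to the Golgi, is cut free and switches on almost the whole pathway. Hmgcs1 encodes the cytosolic HMG-CoA synthase, Idi1 the isomerase of isopentenyl diphosphate, Fdps farnesyl diphosphate synthase, Fdft1 squalene synthase, Sqle squalene epoxidase, Lss lanosterol synthase and Msmo1 the oxidase that removes methyl groups from the sterol core. Insig1 is not an enzyme: its protein holds SCAP in the endoplasmic reticulum when sterol is plentiful, and the gene is itself an SREBP target. All 8 are protein-coding genes on mm10 in the annotation. Hmgcs1 (ENSMUSG00000093930) lies at chr13:119690379-119708260 and Idi1 (ENSMUSG00000058258) at chr13:8885501-8892451, both on the + strand. Fdps (ENSMUSG00000059743) lies at chr3:89093588-89101959 on the - strand and Fdft1 (ENSMUSG00000021273) at chr14:63145150-63179578 on the - strand. Sqle (ENSMUSG00000022351) lies at chr15:59315077-59331192 and Lss (ENSMUSG00000033105) at chr10:76531588-76557138, both on the + strand. Msmo1 (ENSMUSG00000031604) lies at chr8:64718139-64733792 on the - strand and Insig1 (ENSMUSG00000045294) at chr5:28071363-28078662 on the + strand.

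Promoter sequences are shown because SREBP-2 acts at such sites with the CCAAT-binding factor NF-Y. RefSeq promoters (GRCm38.p6) of 300 bases were at hand for 5 of the genes, and not for Fdps, Fdft1 or Sqle. The letters TCACNCCAC, a common form of the sterol regulatory element, were searched on both strands and were found in 1 of the 5 (Hmgcs1), against 1.24% of 32851 promoters. The letters CCAAT, also searched on both strands and not overlapping the first, were found in all 5, against 37.4% of promoters. Below are the 250 bases before the start of Hmgcs1 (chr13:119690101-119690350, + strand), with both motifs in capitals, and 30 bases around the CCAAT nearest upstream of the start in the others: Idi1 (chr13:8885576-8885605, +), Lss (chr10:76531530-76531559, +), Msmo1 (chr8:64733617-64733646, -) and Insig1 (chr5:28071183-28071212, +). RefSeq places these starts apart from the gene bounds given above, so that the Idi1 and Msmo1 windows lie inside those bounds. A match describes letters and does not show binding.
Hmgcs1: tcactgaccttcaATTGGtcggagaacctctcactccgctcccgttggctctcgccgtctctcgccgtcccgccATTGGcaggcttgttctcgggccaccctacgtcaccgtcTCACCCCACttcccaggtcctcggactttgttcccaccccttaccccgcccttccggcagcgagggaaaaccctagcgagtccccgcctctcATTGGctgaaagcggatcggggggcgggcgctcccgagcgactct
Idi1: catggtccaaggtgccATTGGctggcgacc
Lss: tggtgatgctctgATTGGccgagctcgcat
Msmo1: ggagtggggcggaCCAATtacgacaggcga
Insig1: ccgccctcctcccATTGGctccggcggcct

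Cells were placed in classes by UMI counts of marker lists that hold none of the 8 genes. A Ccn3 Has1 cell had at least 2 of Ccn3 (a matricellular protein), Has1 (hyaluronan synthase), Ecm1 (an extracellular matrix protein) and Nppc (C-type natriuretic peptide). This gave 50 cells in Notch2 cKO 1, 98 in Notch2 cKO 2, 83 in control 1 and 344 in control 2, of 7631, 11194, 8866 and 15014 fibroblast-like cells. Ecm1 was found in 97.6% or more of these cells and Has1 in 86.3% to 96.0%, whereas Ccn3 was found in 10.8% to 31.4% and Nppc in 0.0% to 18.0%, with no Nppc-positive cell in Notch2 cKO 1. The class therefore rests mainly on Ecm1 and Has1. General fibroblast genes (Pdgfra, Col1a1, Col1a2 and Dcn) summed to between 15113 and 21940 CPM in it, against 8204 to 10426 CPM in other fibroblast-like cells, where CPM is UMIs per 1000000 UMIs of the summed cells. The leukocyte list summed to at most 3.64 CPM and the endothelial list to at most 17.5 CPM. The pericyte list, which excluded no cell with fibroblast markers, summed to 268 to 917 CPM in the class, against 682 to 1032 CPM in the other cells. Marker lists of several other fibroblast classes were higher in the class than in the other cells in all 4 libraries: inflammatory (2885 to 5279 CPM against 1698 to 4362), Mgp Cd34 (579 to 1491 against 260 to 583), adventitial (272 to 628 against 104 to 341) and medullary-type (576 to 1250 against 361 to 617). The Fabp4 Col15a1 list was also higher in all 4, at 445, 70.0, 50.4 and 80.7 CPM in the class of Notch2 cKO 1, Notch2 cKO 2, control 1 and control 2. The other cells had 39.4, 43.3, 37.5 and 73.0 CPM of it. The part of this overlap in the results was not tested. The 6 other classes compared had 58 cells or more in every library: inflammatory, medullary-type, Cxcl9-high reticular, adventitial progenitor-like, Mgp Cd34 and T-zone reticular-like. Cell medians were 2960 and 7605 UMIs in the Notch2 cKO libraries and 2123 and 6169 UMIs in the controls, and 21 to 57 barcodes were shared between any 2 libraries. Notch2 itself was measured at 19.1 and 39.2 CPM over the fibroblast-like cells of Notch2 cKO 1 and 2, against 38.8 and 58.4 CPM in controls 1 and 2 (log2 fold change -0.84 ± 0.19 SE, edgeR adjusted p = 0.0651). It was called lower in T-zone reticular-like cells (-1.12 ± 0.22, adjusted p = 0.0119) and not in Ccn3 Has1 cells (-1.02 ± 0.45, adjusted p = 1.00) or adventitial progenitor-like cells (-0.15 ± 0.29, adjusted p = 0.999). The 3′ reads need not fall in the deleted part, so this is no full check of the deletion.

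Ccn3 Has1 cells held more RNA of all 8 genes than the other fibroblast-like cells. The log2 fold changes lay between 1.41 and 2.69, with a median of 2.03 against -0.08 over the 14807 genes tested. All 8 passed the test (edgeR quasi-likelihood test with library as a block, adjusted p at most 0.00425), in a comparison where 6.07% of all genes were called higher. In such sums, more cells with the RNA and more RNA per cell cannot be told apart; shares of cells are given further on.

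The early steps came first. Hmgcs1 stood at 118 and 184 CPM in Ccn3 Has1 cells of Notch2 cKO 1 and 2 and at 307 and 117 CPM in those of controls 1 and 2, against 47.3, 51.2, 46.6 and 35.8 CPM in the other fibroblast-like cells of the same libraries. The lowest Ccn3 Has1 value was above the highest value of the other cells, so the groups did not overlap (log2 fold change 1.87 ± 0.17 SE, adjusted p = 3.61e-10). Idi1 gave the largest fold change of the 8. It stood at 39.2, 99.2, 186 and 60.2 CPM in Ccn3 Has1 cells of Notch2 cKO 1, Notch2 cKO 2, control 1 and control 2, against 15.5, 13.2, 14.7 and 11.3 CPM in the others, without overlap (2.69 ± 0.21, adjusted p = 7.55e-12). Fdps had 6.54, 83.1, 106 and 55.9 CPM in Ccn3 Has1 cells in the same order of libraries, against 9.94, 18.1, 18.6 and 10.9 CPM (2.18 ± 0.21, adjusted p = 8.17e-10). Its value in Notch2 cKO 1 is 1 UMI, with a 95% exact Poisson interval of 0.166 to 36.4 CPM, and lay below that of the other cells there.

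The squalene and sterol steps followed the same pattern. Fdft1 had 13.1, 24.8, 80.6 and 27.8 CPM in Ccn3 Has1 cells of Notch2 cKO 1, Notch2 cKO 2, control 1 and control 2, against 7.43, 9.52, 9.49 and 7.13 CPM in the others (1.93 ± 0.25, adjusted p = 6.22e-07). Sqle had 13.1, 29.2, 111 and 22.8 CPM, against 7.67, 9.48, 8.60 and 5.96 CPM (2.13 ± 0.27, adjusted p = 3.47e-07). For both genes every Ccn3 Has1 value was above every value of the other cells, with control 1 far above the rest. Msmo1 had 26.2, 49.6, 131 and 41.3 CPM, against 8.99, 11.4, 11.8 and 8.85 CPM (2.37 ± 0.22, adjusted p = 7.03e-10), again without overlap. Lss was the sparsest, with 1, 3, 1 and 30 UMIs in the class, or 6.54, 4.38, 5.04 and 9.92 CPM against 4.41, 2.75, 2.47 and 2.03 CPM (1.65 ± 0.41, adjusted p = 0.00425). Its lowest class value, 4.38 CPM, lay just below the highest of the others, 4.41 CPM. Its call rests on control 2: without that library the log2 fold change was 0.64 with an adjusted p of 0.775.

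Insig1, the brake of the pathway, rose the least of the 8. It had 32.7, 70.0, 131 and 48.3 CPM in Ccn3 Has1 cells of Notch2 cKO 1, Notch2 cKO 2, control 1 and control 2, against 29.5, 27.3, 28.0 and 18.0 CPM in the others (1.41 ± 0.19, adjusted p = 1.25e-06). In Notch2 cKO 1 the values of class and others were 1.11-fold apart.

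**Figure D1:**
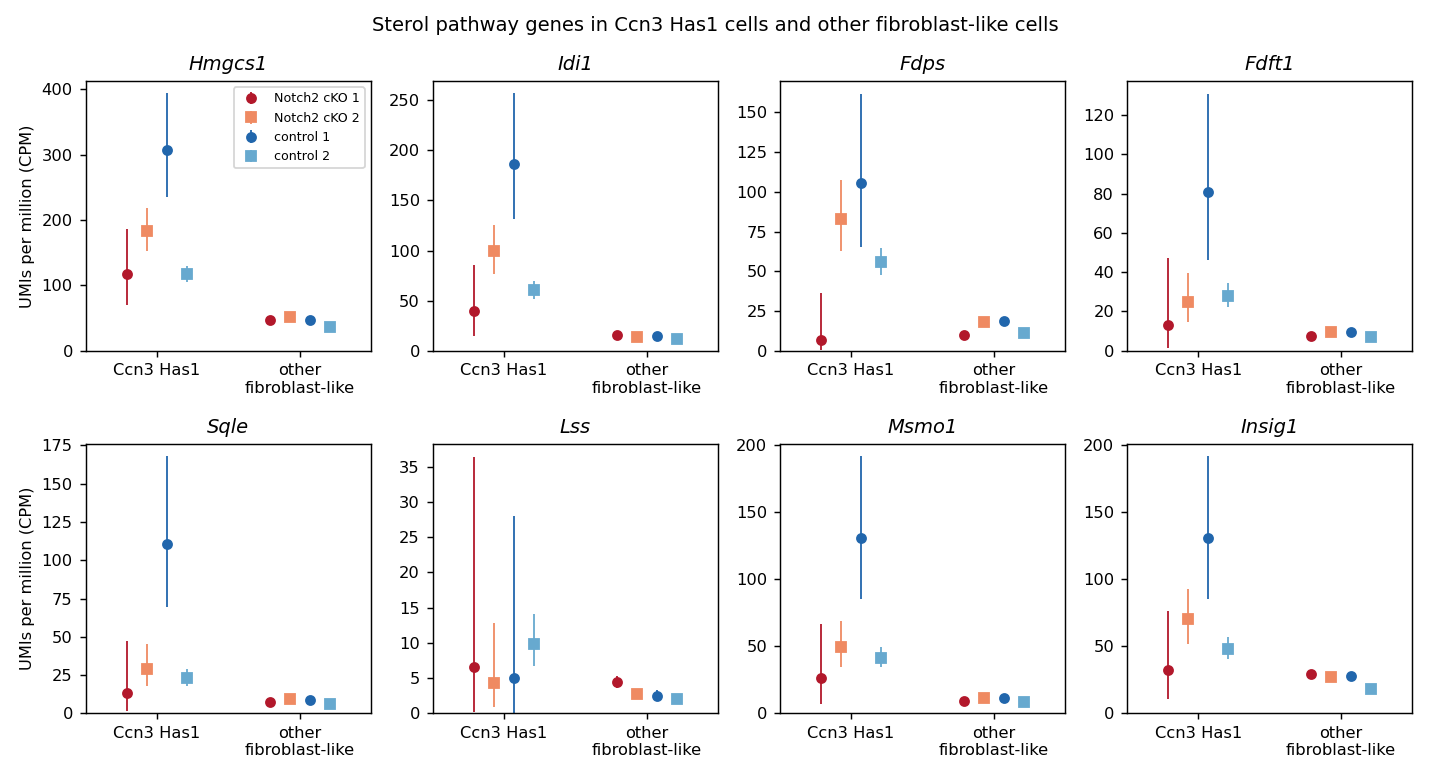
Level of each of the 8 genes (UMIs per 1000000, linear axes that differ between panels) in Ccn3 Has1 cells and in all other fibroblast-like cells of the 4 libraries; points are library sums and bars are 95% exact Poisson intervals for counting error only. Control 1 is highest in the class for 7 of the 8 genes, and Notch2 cKO 1 has wide intervals because its 50 cells held 39 UMIs of the 8 genes.

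Counting library by library, 7 of 8 genes were higher in Ccn3 Has1 cells in Notch2 cKO 1 and 8 of 8 in each of Notch2 cKO 2, control 1 and control 2. The Poisson intervals of class and others were apart for 1, 7, 7 and 8 genes in that order of libraries. The class held 152869 UMIs in Notch2 cKO 1 and 3024812 in control 2, and intervals narrow with depth. The share of all genes that were higher in the class, or had intervals apart, was not taken, so these counts are descriptions. The summed level of the 8 was 255, 544, 1058 and 383 CPM in the class, against 131, 143, 140 and 99.9 CPM, ratios of 1.95, 3.81, 7.54 and 3.83. Notch2 cKO 1 thus gave the smallest ratio and control 1 the largest. With each library left out in turn, 7 of the 8 genes kept their call in every fit, all but Lss. In a model without the library term, 4 of the 8 passed (Hmgcs1, Idi1, Fdft1 and Msmo1). The immediate early and dissociation list, a sign of handling, summed to 37516, 24875, 30633 and 28254 CPM in the class of Notch2 cKO 1, Notch2 cKO 2, control 1 and control 2, against 35346, 22755, 26739 and 25777 CPM in the others. It was thus higher in the class in all 4 libraries, as were 6 of its 12 genes (Junb, Jund, Egr1, Atf3, Ier2 and Nr4a1), of which Ier2 passed the test; Hspa1a was called lower. Its part in the result was not tested. The cell cycle list summed to 98.1 to 116 CPM against 113 to 144 CPM.

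The class was next set against 4 gated classes one at a time; these comparisons share the Ccn3 Has1 sums. Against adventitial progenitor-like cells (Pi16, Dpp4, Anxa3, Sema3c and Cd55 list), 7 of 7 genes tested were higher, by 1.32 (Insig1) to 2.87 (Sqle) on the log2 scale, where 11.1% of 8667 genes were called higher. Against Mgp Cd34 cells, 7 of 7 were higher, by 1.75 (Insig1) to 3.15 (Idi1), where 8.86% of 8410 genes were. In both comparisons Lss did not pass the filter on low counts. Against T-zone reticular-like cells (Ccl21a, Ccl19, Ch25h, Cyp26b1 and Vtn list), 8 of 8 were higher, by 1.53 (Insig1) to 3.33 (Idi1), where 8.56% of 13557 genes were. Against inflammatory cells, a comparison added because they came second in level, 7 of 7 were higher, by 1.04 (Insig1) to 1.97 (Msmo1), where 6.99% of 7681 genes were, and Lss was again filtered out. The summed level in Ccn3 Has1 cells of Notch2 cKO 1 was 255 CPM, against 243 CPM in its inflammatory cells, so that library hardly separated them. The highest adjusted p of the 4 comparisons was 0.00539, 3.99e-05, 0.0187 and 0.00503 in that order (edgeR). Immediate early and dissociation genes moved with some of these contrasts: 11 of 12 were higher in Ccn3 Has1 than in adventitial progenitor-like cells, 7 of 12 against Mgp Cd34 cells, 3 higher and 2 lower against T-zone reticular-like cells, and 2 higher and 2 lower against inflammatory cells. Their part in these contrasts was not tested either.

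Over the 7 classes the summed level of the 8 genes was highest in Ccn3 Has1 cells, at 560 ± 352 CPM (mean ± SD, n = 4 libraries). Inflammatory cells (Ptgs2, Il6 and Cxcl1 list) followed at 191 ± 64.3 CPM, then medullary-type cells at 148 ± 24.2, Cxcl9-high reticular cells at 137 ± 15.6, adventitial progenitor-like cells at 119 ± 28.1, Mgp Cd34 cells at 111 ± 12.2 and T-zone reticular-like cells at 101 ± 19.2 CPM. The lowest Ccn3 Has1 library (255 CPM) was above the highest inflammatory one (243 CPM). From inflammatory cells down, neighbours in this order differed by less than the larger of their SDs. Ccn3 Has1 cells had the highest level of the 7 classes for 2 genes in Notch2 cKO 1, 8 in Notch2 cKO 2, 7 in control 1 and 8 in control 2. The share of all genes that were highest in this class was not taken, so these counts are descriptions.

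**Figure D2:**
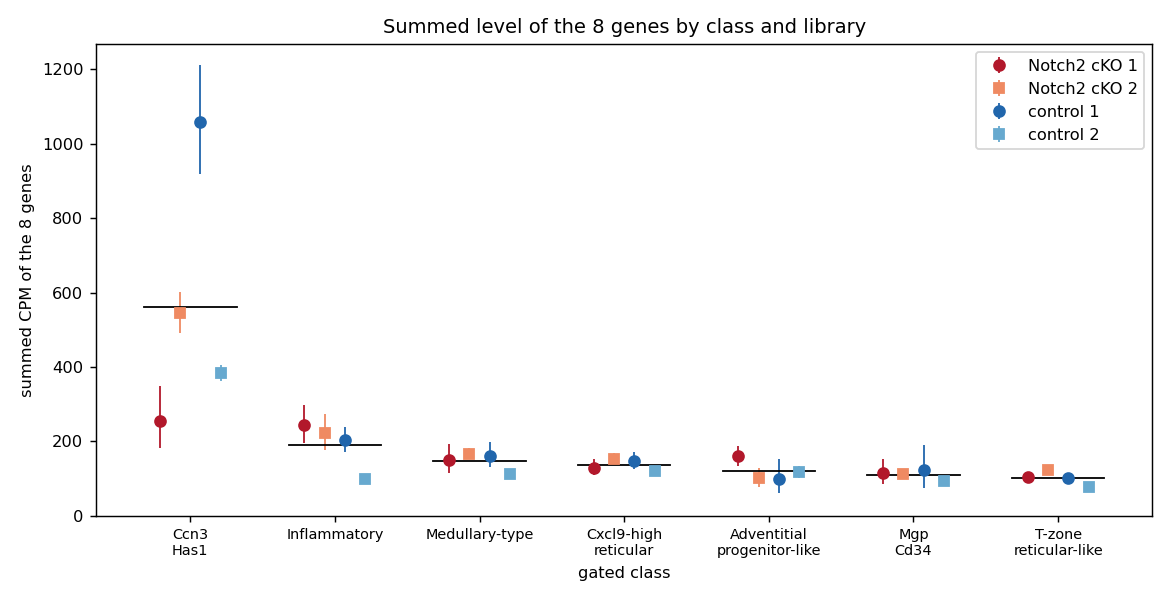
Summed level of the 8 genes (CPM) in the 7 gated classes; points are the 4 libraries with 95% exact Poisson intervals, and black lines are means over libraries. Ccn3 Has1 cells range from 255 to 1058 CPM, while the T-zone reticular-like cells range from 76.6 to 123 CPM.

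T-zone reticular-like cells, the Ccl19- and Ccl21-producing fibroblasts of the T cell area, were low for the pathway. Against all other fibroblast-like cells, which here include the Ccn3 Has1 cells, 6 of 8 genes fell (15.4% of 16536 genes were called lower): Hmgcs1, Idi1, Fdft1, Sqle, Msmo1 and Insig1. Idi1 moved most, at 7.21, 10.1, 8.04 and 6.49 CPM in T-zone reticular-like cells of Notch2 cKO 1, Notch2 cKO 2, control 1 and control 2 (log2 fold change -1.21 ± 0.15 SE, edgeR adjusted p = 0.000758). Mgp Cd34 cells had 4 of 8 lower, namely Hmgcs1, Idi1, Fdft1 and Insig1, by 0.46 to 1.00 on the log2 scale (15.4% of 15169 genes were called lower). Single genes passed in the other classes. Idi1 was higher in inflammatory cells (1.01 ± 0.23, adjusted p = 0.000813; 5.91% of genes called higher). Fdps was higher in Cxcl9-high reticular cells (0.56 ± 0.13, adjusted p = 0.0017; 6.07% called higher). Hmgcs1 was higher in medullary-type cells (0.44 ± 0.12, adjusted p = 0.0106; 7.63% called higher), and Sqle was lower in adventitial progenitor-like cells (-1.06 ± 0.40, adjusted p = 0.0355; 18.6% called lower). In these 4 classes 1 of 8 genes is a share close to, or not much above, that of all genes.

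**Figure D3:**
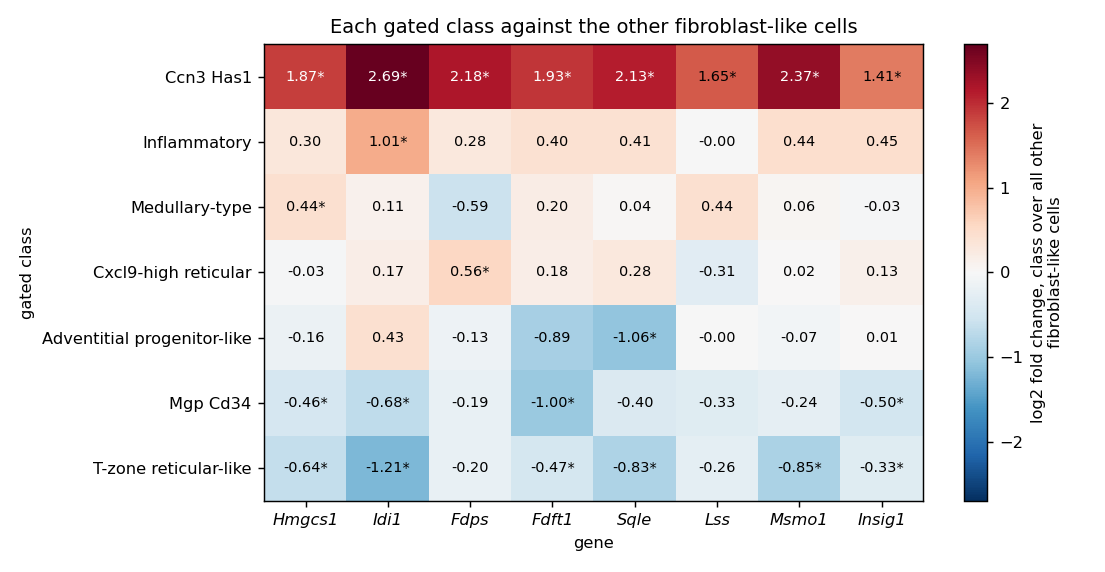
Log2 fold change of each of the 8 genes in each gated class over all other fibroblast-like cells (edgeR, 4 libraries with library as a block); an asterisk marks an adjusted p under 0.05 over all genes tested. The Ccn3 Has1 row is the only one with all 8 genes called, and 6 of 8 are called lower in T-zone reticular-like cells.

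The excess in Ccn3 Has1 cells was uneven from cell to cell. With each cell thinned to 1000 UMIs, 16.0%, 22.4%, 41.0% and 18.0% of Ccn3 Has1 cells of Notch2 cKO 1, Notch2 cKO 2, control 1 and control 2 had a UMI of any of the 8 genes, against 10.53%, 11.4%, 10.998% and 8.62% of the other fibroblast-like cells. The 95% Clopper-Pearson intervals were apart in Notch2 cKO 2, control 1 and control 2, but not in Notch2 cKO 1 (7.17% to 29.1% against 9.84% to 11.2%). Unthinned shares were 44.0%, 52.0%, 55.4% and 58.4% against 26.9%, 51.7%, 22.3% and 37.9%, at median depths of 3009, 5964, 2176 and 8492 UMIs against 2958, 7981, 2126 and 6426 UMIs. Cholesterol synthesis is a general function of cells, so no cell type here could set a background share. The 10% of Ccn3 Has1 cells with the highest level held 53.8%, 79.9%, 61.4% and 73.9% of the class's UMIs of the 8 genes, against 56.3%, 44.2%, 60.3% and 47.3% among the others. In the deeper batch 2 the RNA was thus more concentrated in the class than in the others. The highest single cell of the class carried 7 of 39 UMIs of the 8 genes in Notch2 cKO 1, 91 of 373 in Notch2 cKO 2, 50 of 210 in control 1 and 125 of 1158 in control 2. With that 10% left out of both groups, the summed level was 130, 124, 463 and 112 CPM in the class, against 62.8, 87.9, 61.1 and 57.7 CPM.

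**Figure D4:**
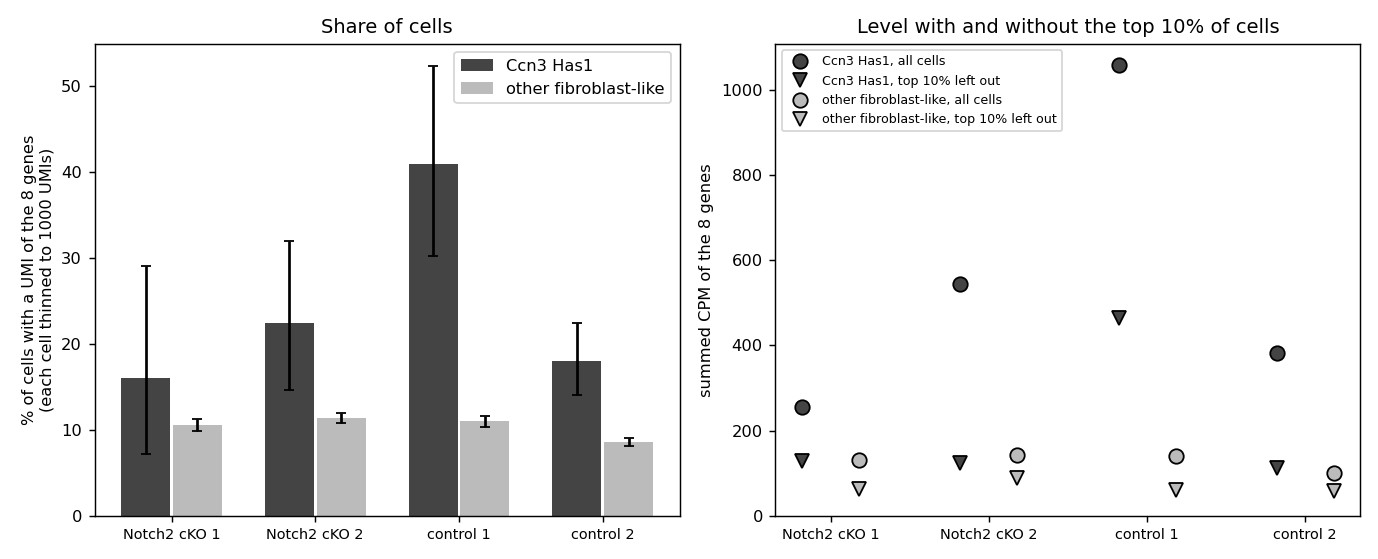
Left, share of cells with a UMI of the 8 genes after thinning each cell to 1000 UMIs, with 95% Clopper-Pearson intervals, in Ccn3 Has1 cells (dark) and other fibroblast-like cells (light) of each library. Right, summed CPM of the 8 genes in the same groups with all cells (circles) and without the 10% of cells with the highest level (triangles); without those cells the class stands at 124 CPM in Notch2 cKO 2 (544 CPM with all cells) and at 463 CPM in control 1 (1058 CPM with all cells).

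Within the class the level differed with the marker carried. Nppc-positive Ccn3 Has1 cells had 1830 CPM in Notch2 cKO 2 (12 cells), 2680 CPM in control 1 (14 cells) and 971 CPM in control 2 (62 cells), while Nppc-negative cells of the class had 235, 616 and 243 CPM in the same libraries and 255 CPM in Notch2 cKO 1. The Nppc-positive cells held 243, 114 and 565 UMIs of the 8 genes in Notch2 cKO 2, control 1 and control 2. Single cells of the class held up to 91, 50 and 125 there, so a few cells may set these levels. Ccn3-positive cells had 166, 1108, 811 and 732 CPM in Notch2 cKO 1, Notch2 cKO 2, control 1 and control 2, against 267, 293, 1089 and 231 CPM in Ccn3-negative cells of the class. The Ccn3-positive cells were the higher in batch 2 (25 and 108 cells), while in batch 1 they numbered 6 and 9, with 3 and 18 UMIs of the 8 genes, too few for a direction. Outside the class, fibroblast-like cells with Nppc had 198, 174, 1651 and 276 CPM (11, 33, 15 and 55 cells) in Notch2 cKO 1, Notch2 cKO 2, control 1 and control 2, against 131, 143, 137 and 99.0 CPM in those without it. Has1, which gives the class part of its name, went the other way in batch 2: class cells with Has1 had 384 CPM in Notch2 cKO 2 and 352 CPM in control 2, against 1602 and 623 CPM in class cells without it (13 and 47 cells). In Notch2 cKO 1 and control 1 the values were 263 and 1063 CPM with Has1, against 0.0 and 1029 CPM without it (2 and 10 cells). To meet the gate, a cell without Has1 must carry Ccn3 or Nppc, so the Has1 split is not separate from the splits by those markers. Cells are not replicates, and these splits are a description.

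Of the cells with at least 8 UMIs and 2000 CPM of the 8 genes, 0 of 16 in Notch2 cKO 1, 5 of 26 in Notch2 cKO 2, 8 of 24 in control 1 and 20 of 35 in control 2 were Ccn3 Has1 cells, a class that made up 0.655%, 0.875%, 0.936% and 2.29% of fibroblast-like cells. A further 12, 12, 13 and 9 of these cells were fibroblast-like cells that met no gate. Ecm1 was found in 37.5%, 69.2%, 58.3% and 88.6% of these high cells, against 11.6%, 26.7%, 7.80% and 26.05% of all other fibroblast-like cells, and Ccn3 in 6.25%, 15.4%, 12.5% and 37.1% against 1.55%, 1.00%, 0.373% and 2.57%. Has1 was found in 12.5%, 30.8%, 29.2% and 51.4% against 4.18%, 6.10%, 2.91% and 9.62%. Nppc was found in 0.0%, 11.5%, 29.2% and 34.3% against 0.144%, 0.376%, 0.249% and 0.701%. The high cells were picked by their level of the 8 genes, and their depth was a median of 3913, 9123, 2847 and 8462 UMIs. All fibroblast-like cells had medians of 2958, 7961, 2127 and 6467 UMIs. The marker shares were not thinned to equal depth.

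Other genes of the pathway were read from lists chosen by their known roles. Of 15 further mevalonate and sterol enzymes, 9 were higher in Ccn3 Has1 cells and 0 lower (median log2 fold change 1.22, against -0.08 for all genes). In this contrast 6.07% of all genes were called higher. Cyp51, which demethylates lanosterol, had 58.9, 87.5, 90.7 and 52.2 CPM in Ccn3 Has1 cells of Notch2 cKO 1, Notch2 cKO 2, control 1 and control 2, against 23.3, 34.5, 20.1 and 17.0 CPM in the others, without overlap (1.55 ± 0.18, edgeR adjusted p = 3.66e-08). Hsd17b7 rose by 1.76 ± 0.24 and Pmvk, phosphomevalonate kinase, by 1.61 ± 0.23. Pmvk had no UMI in the class in Notch2 cKO 1. Mvk, Mvd, Nsdhl and Dhcr7, the last also with no UMI there, were called as well.

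Of 11 genes of sterol sensing and uptake, 5 were higher and none lower (median 0.09), where 6.07% of all genes were called higher and 7.63% lower. Srebf2 rose by 0.86 ± 0.17 on the log2 scale and Stard4, a sterol carrier, by 2.04 ± 0.28. Srebf2 lost its call when cells were gated after thinning. Of 10 genes of the fatty acid branch, 6 were higher and none lower (median 0.76): Scd1, a fatty acid desaturase, had 111, 64.2, 45.3 and 59.8 CPM in Ccn3 Has1 cells, against 15.5, 8.47, 5.63 and 8.83 CPM in the others of the same libraries, without overlap (2.81 ± 0.19, adjusted p = 5.16e-13). Scd2 rose by 1.23 ± 0.16, Acly by 0.97 ± 0.18 and Fasn by 0.87 ± 0.21. Fasn lost its call without control 2, without Notch2 cKO 2 and after gating on thinned cells. In a model without the library term Pmvk, Stard4, Scd2, Acly and Fasn were not called.

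Genes on the side of sterol excess went both ways. Of 8 LXR targets and export genes, 2 were higher and 2 lower (median 0.25), where 6.07% of all genes were called higher and 7.63% lower. Smpdl3a fell by 1.40 ± 0.19 on the log2 scale and Apoe, an apolipoprotein, by 0.66 ± 0.18, while Nr1h3, which encodes LXR alpha, rose by 1.14 ± 0.24. Lpcat3 passed at an adjusted p of 0.0491 and failed in 11 of 13 alternatives. Apoe lost its call without Notch2 cKO 1 and without control 2, and Nr1h3 without control 2. In the model without the library term Apoe, Cyp7b1, Hsd3b7 and Ch25h were not called. Of 7 genes of esterification and oxysterols, Cyp7b1 fell by 1.13 ± 0.23 on the log2 scale (not called without control 2 or with DESeq2), Hsd3b7 rose by 1.12 ± 0.23, and Ch25h was lower but served in the T-zone gate. Cyp7b1, an oxysterol hydroxylase, was lower in the class only in batch 2, at 18.96 and 26.1 CPM in Ccn3 Has1 cells of Notch2 cKO 2 and control 2, against 55.2 and 57.7 CPM in the others; in batch 1 it was at 13.1 and 15.1 CPM in the class of Notch2 cKO 1 and control 1, against 11.1 and 13.4 CPM. Of 9 cell cycle genes tested 1 was lower and none higher (median -0.16): Cdk1, with 4 UMIs in the class over all libraries, which lost its call in 5 of 13 alternatives, among them without control 2 and with DESeq2.

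Over the 28 class and library sums, with library means taken off, each gene's profile was correlated with the mean of the other 7. Pearson's r was 0.913 for Sqle, 0.863 for Hmgcs1, 0.840 for Insig1, 0.822 for Idi1, 0.793 for Fdft1, 0.752 for Msmo1, 0.676 for Fdps and 0.524 for Lss. The sums of a library share its depth, and the sums of a class share its gate, so these are descriptions. Among the genes most like the mean profile, of those at 20 CPM or more, were Cyp51 (r = 0.847), Tnfsf9 (0.846), Itga5, Rhob, Arpc1b, Cotl1, S100a4, Ccdc3, Cdkn1a and Tmbim1 (0.760). Cyp51 is a sterol enzyme, and the other 9 are in none of the lists.

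Whether Notch2 loss altered these genes was asked first in all fibroblast-like cells. None of the 8 passed (edgeR with batch as a term, lowest adjusted p = 0.735; 2.21% of 17634 genes were called in either direction), and 0 of 8 had an unadjusted p under 0.05. DESeq2 also called 0 of the 8. Hmgcs1 stood at 47.7 and 52.1 CPM in Notch2 cKO 1 and 2, against 49.2 and 38.1 CPM in controls 1 and 2 (log2 fold change 0.16 ± 0.19 SE). The summed level was 132 and 146 CPM, against 149 and 108 CPM. Batch 1 was lower in the cKO by 0.18 on the log2 scale and batch 2 higher by 0.43. All 8 genes were higher in the cKO in batch 2 and 2 of 8 (Lss and Insig1) in batch 1.

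In Ccn3 Has1 cells the batches disagreed more. The summed level was 255 CPM in Notch2 cKO 1 and 544 CPM in Notch2 cKO 2, against 1058 CPM in control 1 and 383 CPM in control 2. That is a log2 difference of -2.00 in batch 1 and of 0.51 in batch 2. Idi1 differed by -1.97 in batch 1 and 0.71 in batch 2, and Fdps by -2.71 and 0.56. None of the 7 genes tested passed (all adjusted p = 1.00 as rounded, none with an unadjusted p under 0.05), and 0.0% of 6384 genes were called, with 88 higher and 106 lower at an unadjusted p under 0.05. DESeq2 called 0 as well. The difference between genotypes in the class contrast was tested directly: all 8 estimates were negative, from -1.58 (Lss) to -0.35 (Idi1). None passed (edgeR, lowest adjusted p = 0.818), and 0.405% of 14807 genes were called. At an unadjusted p under 0.05 stood 3 of the 8, and of all 14807 genes 425 higher and 427 lower. Batches differed here too. The summed level of the class over the others was 1.95-fold in Notch2 cKO 1 and 7.54-fold in control 1. In batch 2 it was 3.81-fold in Notch2 cKO 2 and 3.83-fold in control 2. There the ratios of Hmgcs1 and Idi1 were higher in the cKO, and those of the rest of the 8 lower. With SEs of 0.32 to 0.76, sizeable differences in either direction were not detectable. Cells that met the Ccn3 Has1 gate but went to another class by a higher level of its markers numbered 77 in Notch2 cKO 1, 53 in Notch2 cKO 2, 13 in control 1 and 133 in control 2. They had 196, 200, 277 and 186 CPM of the 8 genes.

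**Figure D5:**
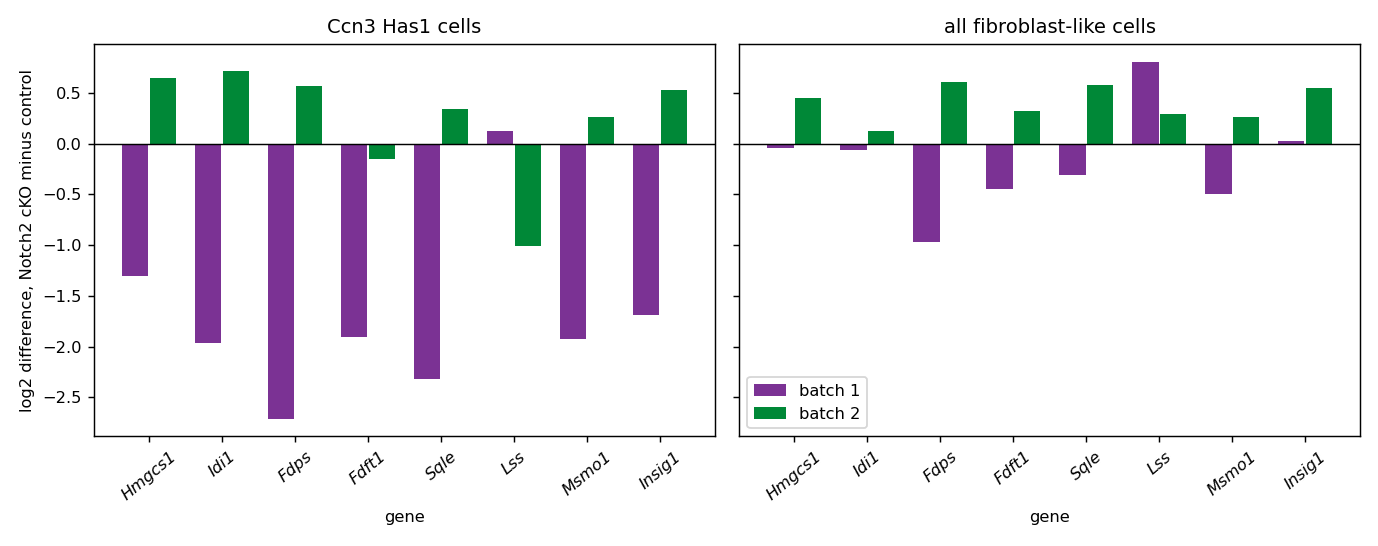
Log2 difference, Notch2 cKO minus control, of each of the 8 genes within batch 1 and batch 2 (1 library per genotype in each, prior of 2 counts), in Ccn3 Has1 cells (left) and all fibroblast-like cells (right). In Ccn3 Has1 cells 1 of 8 genes is higher in the cKO in batch 1 and 6 of 8 in batch 2.

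No gene of the 8 passed between genotypes in adventitial progenitor-like, Cxcl9-high reticular, inflammatory, medullary-type, Mgp Cd34 or T-zone reticular-like cells, where 4, 7, 5, 7, 6 and 8 of them were tested and 0.156%, 3.16%, 1.16%, 0.637%, 0.407% and 5.05% of all genes were called. At an unadjusted p under 0.05 stood Hmgcs1 and Idi1 in inflammatory cells and Hmgcs1 in T-zone reticular-like cells. The share of all genes at this unadjusted level was not taken in these classes. Hmgcs1 was at 39.8 and 43.0 CPM in T-zone reticular-like cells of Notch2 cKO 1 and 2, against 31.5 and 25.8 CPM in controls 1 and 2, without overlap (0.49 ± 0.19, adjusted p = 0.226).

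A neighbour of the 8 in the pathway did differ. Sc5d, the sterol desaturase of a late step, had 52.3 and 56.9 CPM over the fibroblast-like cells of Notch2 cKO 1 and 2, against 15.9 and 19.1 CPM in controls 1 and 2 (1.60 ± 0.19, edgeR adjusted p = 0.0044), and at 68.8 and 72.0 against 13.9 and 25.95 CPM in T-zone reticular-like cells (1.81 ± 0.25, adjusted p = 0.00135). Insig2, a relative of Insig1 with the same SCAP-holding role, stood at 53.9 and 50.4 against 29.4 and 26.4 CPM in fibroblast-like cells (0.86 ± 0.18, adjusted p = 0.047), and at 65.5 and 57.7 against 30.7 and 25.95 CPM in T-zone reticular-like cells (1.07 ± 0.19, adjusted p = 0.00629). Both were higher in the cKO in both batches. Without the batch term neither passed in fibroblast-like cells. Insig2 also failed with library-size scaling, with the stricter cell filter and without the cells with most UMIs. Fits with a library left out held no batch term and left 1 library in 1 genotype, so only their effect sizes are used. Over all alternatives, these included, the log2 fold change stayed between 1.48 and 1.64 for Sc5d and between 0.67 and 1.00 for Insig2. Sc5d was thus 1 of 15 further enzymes called, and Insig2 1 of 10 tested genes of sensing and uptake, where 1.36% of all genes were called higher. In Ccn3 Has1 cells neither was called (log2 fold changes -0.01 and -0.04). In T-zone reticular-like cells, where 2.63% of all genes were called higher, Stard4 (1.60 ± 0.29, adjusted p = 0.00726), Scd1 (1.61 ± 0.35, adjusted p = 0.0218) and Nceh1, a cholesteryl ester hydrolase (1.22 ± 0.27, adjusted p = 0.0219), were also higher in the cKO. In all fibroblast-like cells Stard4 (0.93 ± 0.24, edgeR adjusted p = 0.0985), Nceh1 (1.19 ± 0.27, adjusted p = 0.0625) and Scd1 were not called. The alternatives were not run for genotype in T-zone reticular-like cells, so the calls there, Sc5d and Insig2 included, were not checked in this way.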

How the data were processed

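The authors deposited UMI counts of genes in barcodes, not normalized, for 4 libraries (10x Genomics 3′ kit version 3.1, per the labels' protocols). Per the file headers, batch 1 was counted with Cell Ranger 5.0.1 and batch 2 with 7.1.0, while 5.0.1 and mm10 stand for all in the submitters' processing notes. The sources used here do not state if intronic reads were counted, so batches may differ in this. Libraries held 8491 to 18482 barcodes.

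Cells were kept from 500 genes and 1000 UMIs upward, with mitochondrial UMIs no higher than 10%. Classes were gated on marker UMIs with no clustering. A gate needed 2 markers of lists of 3 or 4 and 3 of the list of 5 (adventitial), and at least 10 UMIs per 10000, or the 95th percentile over fibroblast-like cells if higher. The T-zone gate needed 2 markers and 100 UMIs per 10000, after the other gates. A cell meeting several gates went to the one it exceeded most. Cells with fibroblast markers and those of a Schwann, leukocyte, endothelial or epithelial list, or of several such lists, were left out in place of a doublet caller. Pericyte and smooth muscle markers did not exclude a cell with fibroblast markers. The number for the adventitial list was set after marker UMIs, and no pathway gene, had been looked at.

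Class sums of UMIs in each library entered edgeR 4.0.16 (its quasi-likelihood test with TMM, filterByExpr, Benjamini-Hochberg threshold 0.05 over all genes tested) in R 4.3.3; class fits had 3 residual degrees of freedom, genotype fits 1 and the fit of their difference 2. DESeq2 1.42.0 was an alternative. Scripts were tested on simulated data. The labels state the batch behind each replicate number; across 6524 genes, same-batch deviations from the group means correlated at 0.818. UMI counts of a 3′ kit are not compared between genes. Intervals cover counting error only. Python 3.11.15 with scipy 1.17.1 gave the rest.

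Members and lists were chosen with earlier results of these data known. Besides the 8, the text names up to 4 genes per list with the lowest adjusted p, the 12 most alike profiles, and a few called genes chosen after their values were seen (Mvk, Mvd, Nsdhl, Dhcr7, and those named in T-zone reticular-like cells). Some genes that the rule picks are not reported here.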

Additional observations from a re-analysis of the deposited data

How the results depend on the processing

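The 8 genes were called higher in Ccn3 Has1 cells in 97 of 104 refits of single genes, and the other 7 kept the direction. The exceptions were Lss with DESeq2, without control 2 and with every cell meeting the gate, and Fdps, Sqle, Lss and Insig1 without the replicate block. The count of the 8 that passed was 4 with no replicate block, and 7 to 8 with a library left out. The number of all genes called in this contrast (2029) was 1094 with DESeq2, 205 with no replicate block and 1235 to 2188 with a library left out. The threshold times 1.5, every cell meeting the gate and the comparison with inflammatory cells were added after the data were seen. The stricter gate left 5 Ccn3 Has1 cells in 1 library and was not run for that class.

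For genotype in all fibroblast-like cells, the 390 genes called were 44 with library-size scaling, 1061 with no filter on low counts, 188 with the stricter cell filter, 0 with no replicate block and 0 to 9 with a library left out. In Ccn3 Has1 cells, 0 genes called became 7 with library-size scaling, 20 with no filter, 13 on thinned cells, 18 with the stricter cell filter, 46 without the cells with most UMIs, 11 with every cell meeting the gate and 0 to 36 with a library left out. For the difference between genotypes in the class contrast, 60 became 2 with DESeq2, 0 with no replicate block, 31 with the threshold times 1.5 and 11 to 81 with a library left out; on thinned cells 1 of the 8, Fdps, was called (-2.30, adjusted p = 0.022; over the alternatives its adjusted p ranged from 0.022 to 1.00). In all fibroblast-like cells and in Ccn3 Has1 cells, the genotype fits with a library left out also held no replicate block. They left 1 library in 1 genotype, so a lost call or changed sign there cannot be laid to the missing library alone. The causes were not tested.

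Genotype estimates of the 8, none called, changed sign in several refits. In all fibroblast-like cells, Idi1 became 0.034 with library-size scaling, 0.010 with no filter and 0.0078 with the stricter cell filter, and Sqle -0.0013 with that filter. With a library left out, log2 fold changes reached -0.14 to 0.41 for Hmgcs1, -0.30 to 0.24 for Idi1, -0.67 to 0.22 for Fdps, -0.42 to 0.16 for Fdft1, -0.32 to 0.44 for Sqle, -0.48 to 0.10 for Msmo1 and -0.18 to 0.62 for Insig1. In Ccn3 Has1 cells, Hmgcs1 became 0.039 and Idi1 0.016 without the cells with most UMIs, and with a library left out the ranges were -0.99 to 0.35 for Hmgcs1, -1.50 to 0.26 for Idi1, -2.20 to 0.034 for Sqle, -1.27 to 0.15 for Insig1 and -3.46 to 0.067 for Fdps. The difference between genotypes for Idi1 ranged from -1.52 to 0.11. With 39 UMIs of the 8 genes in the class in Notch2 cKO 1, depth limits every statement on that library.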
